A study of Mus musculus with 12 samples.

Results

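Interferon-stimulated genes were followed across macrophages from mice of 2 genotypes and 2 diets. A list of 40 genes that type I interferon is known to induce was looked up in a count table of 12339 genes. The table held 38 of the 40, 37 under the listed symbol and 1, Ddx58, under its current symbol Rigi and the same Entrez identifier, 230073. Ifi44 and Cxcl10 were not among the genes listed and were not analysed here. All 38 members passed the filter on low counts, and the smallest count of any member in any library was 82.

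The mice were wild type (WT) or meKO, read here from the series title as a knockout of Prkce, the gene of protein kinase C epsilon, in myeloid cells. The sources used here do not name the recombinase or the promoter that drives it. All animals, those on chow included, were injected at 8 weeks of age with an AAV8 viral vector that prepares them to become hypercholesterolemic on a fatty diet. They then stayed on chow or received a high-fat ("Western") diet (HFD), and after 4 weeks macrophages were drawn into the peritoneum with sterile thioglycolate and recovered by lavage. Each of the 4 groups (WT chow, WT HFD, meKO chow, meKO HFD) had 3 libraries. The titles give each library a number of its own, but no label says that each is a separate animal, so p-values measure the spread between these libraries.

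Type I interferons bind the receptor made of Ifnar1 and Ifnar2, whose kinases Jak1 and Tyk2 phosphorylate Stat2. Phosphorylated Stat2 and Irf9 are parts of the complex ISGF3, which binds the interferon-stimulated response element (ISRE) in the promoters of its targets and switches on proteins that sense, cut, trap or sequester viral material. Interferon gamma acts through the gamma-activated sequence (GAS), and a low tonic interferon signal keeps many of these genes on in resting macrophages. Irf7, itself induced, amplifies the production of interferon, and Usp18 and other induced genes restrain the response.

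RefSeq promoter windows (GRCm38.p6, 250 bases before to 50 bases after the annotated start) were matched for 29 of the 38 members. The ISRE letters GAAANNGAAA, searched on both strands, occurred in the windows of 18 of the 29 members (62.1%) and of 4.01% of the 9553 genes of the table with a window. GAS letters, TTCNNNGAA, which read the same on both strands as a pattern, occurred for 10 of the 29 members (34.5%) and for 8.28% of those genes. A match describes letters and shows no binding. The windows of 6 members with an ISRE match are printed because their genes carry the diet results below. Each runs 5′ to 3′ along its gene, with the bases of the ISRE match in capitals.
Gbp7 (chr3:142530086-142530385, plus strand): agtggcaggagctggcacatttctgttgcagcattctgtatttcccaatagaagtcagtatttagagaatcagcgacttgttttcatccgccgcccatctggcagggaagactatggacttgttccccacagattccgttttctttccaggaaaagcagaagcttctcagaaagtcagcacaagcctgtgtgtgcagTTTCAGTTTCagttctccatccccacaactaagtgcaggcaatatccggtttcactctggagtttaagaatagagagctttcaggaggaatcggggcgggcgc
Stat2 (chr10:128270248-128270547, plus strand): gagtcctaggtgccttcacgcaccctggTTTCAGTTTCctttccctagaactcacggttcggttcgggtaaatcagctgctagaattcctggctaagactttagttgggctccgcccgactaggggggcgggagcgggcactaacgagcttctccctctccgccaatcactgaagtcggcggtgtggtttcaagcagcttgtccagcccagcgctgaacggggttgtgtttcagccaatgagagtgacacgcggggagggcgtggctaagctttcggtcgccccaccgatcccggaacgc
Oas1a (chr5:120907476-120907775, minus strand): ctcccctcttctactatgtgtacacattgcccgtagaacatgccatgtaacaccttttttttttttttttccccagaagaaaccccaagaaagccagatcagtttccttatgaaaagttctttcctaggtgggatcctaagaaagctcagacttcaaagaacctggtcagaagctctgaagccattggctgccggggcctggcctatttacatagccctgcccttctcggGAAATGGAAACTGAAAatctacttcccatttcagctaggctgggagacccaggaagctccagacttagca
Rigi (chr4:40239776-40240075, minus strand): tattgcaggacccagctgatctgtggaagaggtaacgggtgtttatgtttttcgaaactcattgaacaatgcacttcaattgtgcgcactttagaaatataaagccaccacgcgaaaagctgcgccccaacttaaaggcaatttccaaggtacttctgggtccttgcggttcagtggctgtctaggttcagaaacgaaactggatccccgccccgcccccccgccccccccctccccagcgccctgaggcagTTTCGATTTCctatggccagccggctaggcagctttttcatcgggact
Eif2ak2 (chr17:78882523-78882822, minus strand): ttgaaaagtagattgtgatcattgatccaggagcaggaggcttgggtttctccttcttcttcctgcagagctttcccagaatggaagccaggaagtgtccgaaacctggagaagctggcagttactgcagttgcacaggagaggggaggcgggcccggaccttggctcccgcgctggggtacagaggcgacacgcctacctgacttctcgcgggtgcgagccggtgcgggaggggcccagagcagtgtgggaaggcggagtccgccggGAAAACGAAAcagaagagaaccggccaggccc
Bst2 (chr8:71537423-71537722, minus strand): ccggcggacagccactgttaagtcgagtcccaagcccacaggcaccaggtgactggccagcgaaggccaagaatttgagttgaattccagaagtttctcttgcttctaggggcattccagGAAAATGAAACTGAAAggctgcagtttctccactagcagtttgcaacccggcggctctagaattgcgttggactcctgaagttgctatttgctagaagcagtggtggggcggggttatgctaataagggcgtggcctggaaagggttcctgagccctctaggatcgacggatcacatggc
In Gbp7 the match began 53 bases before the start and in Stat2 222 bases before it, both with the pattern on the opposite strand. The pattern overlapped itself in Oas1a, with matches beginning 20 and 14 bases before the start, and in Bst2, with matches beginning 130 and 124 bases before it. Rigi and Eif2ak2 held their match just past the start, beginning at bases 2 and 18 after it. Members that rose on HFD and members that fell are both among these 6, and Irf7 and Oasl1, which also rose, held no such letters in this window.

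Library totals ranged from 25844958 to 37282772 counts. Prkce was at 2.01 to 4.44 CPM (counts scaled to a common library size) in the 6 WT libraries and at 0.950 to 1.78 CPM in the 6 meKO libraries, with no overlap. The 7 macrophage markers, led by Cd68, summed to 4943 to 6250 CPM in every library. B cell markers (5 of 6 in the table) summed to 106 to 163 CPM in WT chow, 51.9 to 87.2 in WT HFD, 72.2 to 159 in meKO chow and 55.5 to 110 in meKO HFD. Markers of plasmacytoid dendritic cells, the blood cells best known for interferon release, summed to 55.5 to 59.5 CPM in WT chow, 38.9 to 42.5 in WT HFD, 37.8 to 47.1 in meKO chow and 33.8 to 36.96 in meKO HFD (6 of 7 in the table), of which Tcf4, also expressed by other cells, made up most. Conventional dendritic cell markers (6 of 6) summed to 31.3 to 46.7 CPM in WT chow, 15.9 to 24.3 in WT HFD, 22.1 to 43.9 in meKO chow and 23.4 to 35.8 in meKO HFD. Neutrophil markers (5 of 7) summed to 124 to 137 CPM in WT chow, 94.0 to 98.9 in WT HFD, 123 to 144 in meKO chow and 115 to 125 in meKO HFD, so that this sum, too, was lower in every WT HFD library than in every WT chow library. Csf3r, at a mean of 88.0 CPM, made up most of it. T and NK cell markers (9 of 10) summed to 15.2 to 33.3 CPM in WT chow and 22.2 to 29.6 in WT HFD. Their sum was 18.6 to 19.2 CPM in meKO chow and higher in meKO HFD, at 28.1 to 33.9. Inflammatory monocyte markers (5 of 5) summed to 576 to 785 CPM in WT chow and 480 to 606 in WT HFD. That sum was 638 to 848 CPM in meKO chow and 420 to 693 in meKO HFD. Resident large peritoneal macrophage markers (6 of 6) summed to 144 to 320 CPM in WT chow and 199 to 292 in WT HFD. They summed to 114 to 261 CPM in meKO chow and 125 to 290 in meKO HFD. The part of these cell types in the results below was not tested. In bulk RNA fewer cells of a type and less RNA per cell cannot be told apart.

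Some libraries stood apart before any contrast was drawn. Long transcripts read higher in WT chow replicates 1 and 2: across all genes with a transcript length, each gene's deviation from its own mean correlated with length at Spearman's rho 0.60 and 0.65 there, against -0.04 in WT chow replicate 3 and -0.43 in meKO HFD replicate 2. WT HFD replicate 3 held the highest value of 18 of the 38 members, although only 6.36% of all genes were highest in it. WT chow replicate 2 was highest for 11 members (20.1% of all genes), and WT chow replicate 1 was lowest for 12 (18.4% of all genes). In the map of all members by library, the column of WT HFD replicate 3 is mostly of one colour. Those of WT chow replicates 1 and 2 are mixed, and WT chow replicate 2 was also lowest for 5 members.

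**Figure D1:**
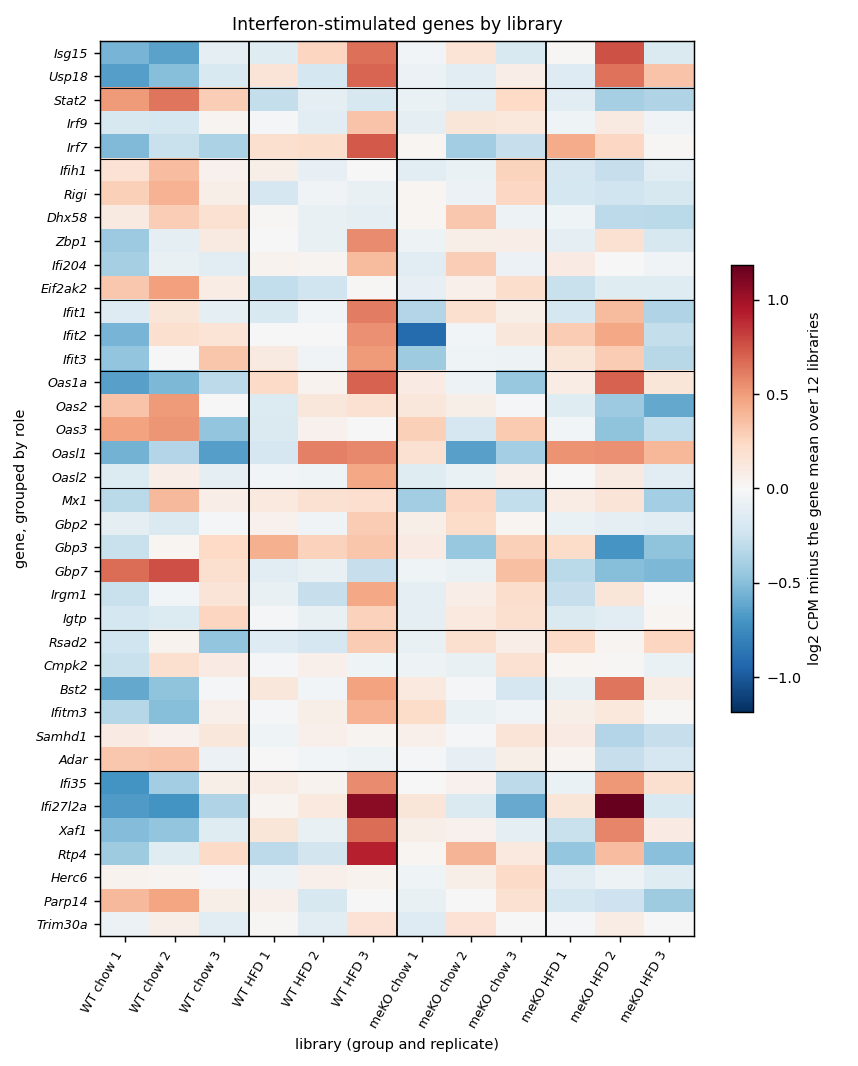
Level of each of the 38 members (rows, grouped by role) in each of the 12 libraries (columns), as log2(CPM + 0.1) minus the gene's mean over the 12 libraries. WT HFD replicate 3 is red for most rows and holds the highest value of 18 members, while Stat2, Gbp7, Rigi, Eif2ak2 and Parp14 are highest in WT chow replicate 2.

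Per kilobase of transcript, Ifitm3, a membrane protein that blocks viral entry, stood far above the other members, at 1489 mean CPM per kilobase over the 12 libraries. Ifi27l2a followed with 109, the nucleotide hydrolase Samhd1 with 98.6, the DNA sensor Ifi204 with 93.5 and the virus tether Bst2 with 72.9 CPM per kilobase. The IFIT proteins, which bind viral RNA caps, were the lowest family: Ifit3 stood at 2.40, Ifit1 at 2.03 and Ifit2 at 1.41 CPM per kilobase. Mx1 had no transcript length in the annotation used and has no such level.

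In WT macrophages the share of interferon-stimulated genes called between diets was near that of all genes. Of 38 members, 5 rose (Oasl1, Oas1a, Irf7, Usp18 and Xaf1) and 4 fell (Gbp7, Stat2, Eif2ak2 and Rigi) at an adjusted p under 0.05 (edgeR), between 1.30-fold and 1.85-fold. This share, 23.7%, stands beside 21.3% of all genes tested, with 9.5% of all genes higher and 11.8% lower. Over the 38 members the median log2 fold change was 0.21, against -0.03 over all genes. Every WT HFD library lay above every WT chow library for 7 members (19.4% of all genes) and below for 6 (19.9% of all genes). The calls of Xaf1, Usp18 and Rigi in WT held in 9, 10 and 13 of 22 alternatives. Those of Eif2ak2, Gbp7, Oasl1, Oas1a, Irf7 and Stat2 held in 16, 18, 18, 19, 20 and 20. With library totals in place of scaling factors 4 members rose and 5 fell. No member was called without WT chow replicate 1 (1.05% of all genes were) or without WT HFD replicate 3 (0.778%), 2 were called without WT chow replicate 2 (2.59%) and 4 without WT HFD replicate 1 (3.73%). Without WT chow replicate 3 there were 16 (39.9%).

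In meKO macrophages the same contrast called 0 of 38 members with edgeR, where 0.105% of all genes were called. At an unadjusted p under 0.05 there were 9 members (15.9% of all genes), limma-voom called 0 (0.0729%), DESeq2 called 0 (1.83%), and limma-voom with quality weights called 1, which was lower (3.23%). Every meKO HFD library lay above every meKO chow library for 1 member (10.3% of all genes) and below for 9 (9.38% of all genes). Averaged over both genotypes, HFD called 14 members, 7 higher and 7 lower (36.8%), against 30.2% of all genes, with 14.9% higher and 15.3% lower. Oasl1, Oas1a, Irf7 and Usp18 were again higher, joined by Ifi27l2a, Ifi35 and Bst2. Gbp7, Stat2, Eif2ak2 and Rigi were again lower, joined by Parp14, Dhx58 and Oas2. The calls of Oas2, Bst2, Ifi35 and Usp18 held in 8, 11, 11 and 12 of 21 alternatives. Library totals gave 5 higher and 8 lower in this averaged contrast.

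Irf7, the transcription factor that drives interferon production (Entrez 54123, chr7:141263183-141266499, GRCm38.p6), was read at 41.4, 49.6 and 46.1 CPM in WT chow and at 68.0, 69.0 and 98.7 CPM with HFD. WT groups did not overlap, and WT HFD replicate 3 stood highest. The meKO libraries gave 60.5, 44.7 and 49.5 CPM on chow and 81.0, 71.0 and 60.2 CPM on HFD, where the highest chow library passed the lowest HFD library. Irf7 rose 1.72-fold in WT (log2 fold change 0.78 ± 0.17 SE, adjusted p = 0.0134). The meKO difference was 0.46 ± 0.17 (adjusted p = 0.252), and averaged over genotypes it rose by 0.62 ± 0.12 (adjusted p = 0.00565).

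Stat2, the ISGF3 subunit that carries the transactivation domain (Entrez 20847, chr10:128270498-128292853), went the other way. It was at 33.5, 36.8 and 28.9 CPM in WT chow and at 19.4, 21.8 and 20.6 CPM in WT HFD. Every WT HFD library was below every WT chow library, and the means were 33.0 ± 3.98 and 20.6 ± 1.20 CPM (SD, n = 3). Those of meKO gave 22.4, 21.7 and 27.9 CPM on chow and 21.6, 18.004 and 18.5 CPM on HFD, so that meKO chow already lay below WT chow. The fall in WT was 1.60-fold (-0.68 ± 0.13, adjusted p = 0.0111), against -0.31 ± 0.13 in meKO (adjusted p = 0.298) and -0.49 ± 0.09 averaged (adjusted p = 0.00567). Irf9, the DNA-binding subunit of ISGF3, was not called in any contrast with edgeR: its log2 differences with HFD were 0.20 ± 0.13 in WT and -0.05 ± 0.13 in meKO.

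Among the OAS proteins, which make the antiviral messenger 2-5A from double-stranded RNA, Oas1a and Oasl1 were higher on HFD in WT. Oas1a (Entrez 246730, chr5:120896256-120907544) was at 52.7, 56.8 and 66.3 CPM in WT chow and at 96.1, 84.9 and 134 CPM in WT HFD. These did not overlap. Its meKO values were 87.9, 79.0 and 60.1 CPM on chow and 87.7, 133 and 90.7 CPM on HFD, which overlapped narrowly. Oas1a rose 1.79-fold in WT (0.84 ± 0.20, adjusted p = 0.0187), with 0.46 ± 0.20 in meKO (adjusted p = 0.300) and 0.65 ± 0.14 averaged (adjusted p = 0.00886). Oas1a has near-identical copies such as Oas1g, and the counting rule for shared reads is not given in the sources used here, so its own share is uncertain.

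Oasl1, a relative without the enzyme activity that represses Irf7 translation (Entrez 231655, chr5:114923143-114937911), showed the largest fold among the called members in WT. It was at 15.9, 18.5 and 14.9 CPM in WT chow and at 20.5, 35.6 and 34.98 CPM in WT HFD. Oasl1 in meKO stood at 26.7, 15.0 and 17.8 CPM on chow and at 34.2, 34.4 and 31.0 CPM on HFD. Neither genotype's diet groups overlapped, and Oasl1 was the only member higher on HFD without overlap in meKO. It rose 1.85-fold in WT (0.88 ± 0.22, adjusted p = 0.0208), and by 0.81 ± 0.16 averaged (adjusted p = 0.00585). The meKO difference was 0.74 ± 0.22 (adjusted p = 0.190). Oas2 ranged from 4.57 to 10.03 CPM and was lower by -0.34 on the log2 scale averaged over genotypes (adjusted p = 0.0467), a call that held in 8 of 21 alternatives (adjusted p from 0.00179 to 0.130) and was lost with limma-voom and with the length and GC correction. Oas3 and Oasl2 were called in no contrast with edgeR, with log2 differences in WT of -0.29 ± 0.23 and 0.21 ± 0.14.

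Of the 6 RNA and DNA sensors, 2 fell in WT (11.8% of all genes fell) and 3 in the averaged contrast (15.3% of all genes). None rose in either, where 9.5% and 14.9% of all genes rose. Rigi, which detects viral RNA ends (Entrez 230073, chr4:40203777-40239825), was at 36.1, 39.6 and 31.1 CPM in WT chow and at 25.8, 28.7 and 27.9 CPM in WT HFD. Rigi in meKO stood at 30.1, 28.3 and 35.1 CPM on chow and at 25.6, 25.1 and 25.9 CPM on HFD. In both genotypes every HFD library lay below every chow library. The fall was 1.30-fold in WT (-0.37 ± 0.12, adjusted p = 0.0398) and -0.33 ± 0.08 averaged (adjusted p = 0.0137), with -0.29 ± 0.12 in meKO (adjusted p = 0.284).

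Eif2ak2, the double-stranded RNA kinase PKR that stops translation (Entrez 19106, chr17:78850504-78882572), was at 36.3, 40.7 and 30.8 CPM in WT chow and at 23.7, 24.5 and 29.4 CPM in WT HFD. Its meKO values were 27.2, 30.2 and 33.5 CPM on chow and 24.1, 26.2 and 26.3 CPM on HFD. Again neither pair of diet groups overlapped. Eif2ak2 fell 1.39-fold in WT (-0.47 ± 0.13, adjusted p = 0.0266) and by 0.36 on the log2 scale averaged (adjusted p = 0.0145), beside -0.25 ± 0.13 in meKO (adjusted p = 0.360).

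Dhx58, the helicase LGP2 that tunes the other RNA sensors (Entrez 80861, chr11:100694884-100704271), was at 21.2, 24.1 and 22.4 CPM in WT chow and at 19.9, 18.6 and 18.2 CPM in WT HFD. Its values in meKO were 20.0, 24.7 and 18.9 CPM on chow and 19.04, 15.9 and 15.8 CPM on HFD, with a narrow overlap. It fell only in the averaged contrast (-0.29 ± 0.09, adjusted p = 0.0288), not in WT (-0.26 ± 0.13, adjusted p = 0.147) or meKO (-0.33 ± 0.13, adjusted p = 0.273) at this threshold. Ifih1, the sensor MDA5 of long double-stranded RNA, was at 32.1 to 49.8 CPM and was not called (-0.22 ± 0.09 averaged, adjusted p = 0.0726). The cytosolic nucleic acid sensors Zbp1 and Ifi204 had positive log2 differences in WT, 0.33 ± 0.18 and 0.36 ± 0.14, and were not called.

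Among the guanylate-binding and immunity-related GTPases, which attack pathogen vacuoles, Gbp7 alone was called with edgeR. Gbp7 (Entrez 229900, chr3:142530336-142550151) was at 31.5, 33.7 and 22.6 CPM in WT chow and at 18.1, 18.6 and 16.3 CPM in WT HFD. In meKO it was at 19.1, 18.8 and 25.3 CPM on chow and at 15.8, 13.9 and 13.6 CPM on HFD. Both genotypes' diet groups were apart. It fell 1.66-fold in WT (-0.73 ± 0.16, adjusted p = 0.0148) and by 0.64 on the log2 scale averaged (adjusted p = 0.00463), with -0.54 ± 0.16 in meKO (adjusted p = 0.194). Gbp3, from the same gene cluster, pointed up in WT (0.33 ± 0.22) and down in meKO (-0.27 ± 0.23), uncalled in both. Gbp2, Irgm1, Igtp and the dynamin-like Mx1 had log2 differences of 0.09 to 0.21 in WT, all uncalled. Gbp family members are alike in sequence, so reads shared between them could have been split in ways not known here.

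Usp18, the protease that removes Isg15 and blocks the interferon receptor (Entrez 24110, chr6:121245906-121270917), was at 9.25, 10.2 and 12.9 CPM in WT chow and at 16.2, 12.6 and 23.6 CPM in WT HFD. In meKO it was at 13.9, 13.4 and 15.4 CPM on chow and at 13.1, 22.8 and 18.4 CPM on HFD. Both pairs of groups overlapped. It rose in WT (0.70 ± 0.23, adjusted p = 0.0460) and averaged over genotypes (0.52 ± 0.16, adjusted p = 0.0286), and its meKO difference was 0.35 ± 0.23 (adjusted p = 0.448). Isg15, the ubiquitin-like protein that Usp18 removes, ran from 3.17 to 8.51 CPM and was not called (0.72 ± 0.26 in WT, adjusted p = 0.0636).

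Xaf1, an interferon-induced promoter of apoptosis (Entrez 327959, chr11:72301461-72313733), was at 10.1, 10.4 and 13.1 CPM in WT chow and at 16.0, 13.6 and 22.9 CPM in WT HFD. Values in meKO were 15.2, 15.0 and 13.3 CPM on chow and 12.02, 21.6 and 15.5 CPM on HFD. The WT groups lay close but apart and the meKO groups overlapped. Its call in WT was at the threshold (0.64 ± 0.22, adjusted p = 0.0499) and did not extend to the averaged contrast (0.41 ± 0.15, adjusted p = 0.0584).

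Ifi27l2a, a small protein of the inner mitochondrial and nuclear membranes (Entrez 76933, chr12:103433873-103443680), was at 28.8, 28.1 and 35.9 CPM in WT chow and at 47.2, 50.1 and 97.2 CPM in WT HFD. On the meKO side it stood at 50.9, 41.0 and 30.4 CPM on chow and at 50.8, 105 and 40.6 CPM on HFD. A single library in each HFD group, WT HFD replicate 3 and meKO HFD replicate 2, stood at 97.2 and 105 CPM, while the other 4 HFD libraries lay between 40.6 and 50.8 CPM. Ifi27l2a rose in the averaged contrast (0.87 ± 0.25, adjusted p = 0.0254) and had the widest error of the called members. Its differences were 1.07 ± 0.36 in WT (adjusted p = 0.0534) and 0.68 ± 0.36 in meKO (adjusted p = 0.359).

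Bst2, tetherin, which holds budding virus at the membrane (Entrez 69550, chr8:71534255-71537472), was at 36.8, 40.4 and 55.3 CPM in WT chow and at 61.6, 55.2 and 78.4 CPM in WT HFD. Bst2 in meKO stood at 60.8, 55.7 and 48.9 CPM on chow and at 52.8, 87.6 and 59.6 CPM on HFD. Both pairs overlapped, and the averaged rise was 0.42 ± 0.14 (adjusted p = 0.0407). Ifi35, a partner of Nmi, ranged from 15.8 to 38.0 CPM and rose by a like amount (0.44 ± 0.15, adjusted p = 0.0403).

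Parp14, a mono-ADP-ribosyltransferase (Entrez 547253, chr16:35831892-35871518), was at 106, 113 and 85.9 CPM in WT chow and at 85.1, 71.7 and 81.2 CPM in WT HFD. Parp14 in meKO stood at 76.6, 81.5 and 92.7 CPM on chow and at 70.8, 68.9 and 60.9 CPM on HFD. Both genotypes' diet groups were apart, in WT by a small margin. It fell in the averaged contrast (-0.34 ± 0.09, adjusted p = 0.0148).

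The IFIT family, a textbook readout of type I interferon, was called in no contrast with edgeR. Ifit2 (Entrez 15958, chr19:34550550-34576534) was at 3.51, 5.94 and 5.85 CPM in WT chow and at 5.21, 5.23 and 7.61 CPM in WT HFD. In meKO it was at 2.71, 5.08 and 5.70 CPM on chow and at 6.45, 7.17 and 4.25 CPM on HFD. All 4 groups overlapped. The log2 difference of Ifit2 with HFD was 0.33 ± 0.21 averaged (adjusted p = 0.240), and those of Ifit1 and Ifit3 were 0.10 ± 0.17 and 0.23 ± 0.17. The radical enzyme Rsad2 (viperin), its genomic neighbour Cmpk2, the RNA editor Adar and Samhd1, Herc6, Rtp4, Trim30a and Ifitm3 were likewise called in no contrast with edgeR. Ifitm3 was at 789, 704 and 1042 CPM in WT chow and at 989, 1045 and 1328 CPM in WT HFD, which overlapped.

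**Figure D2:**
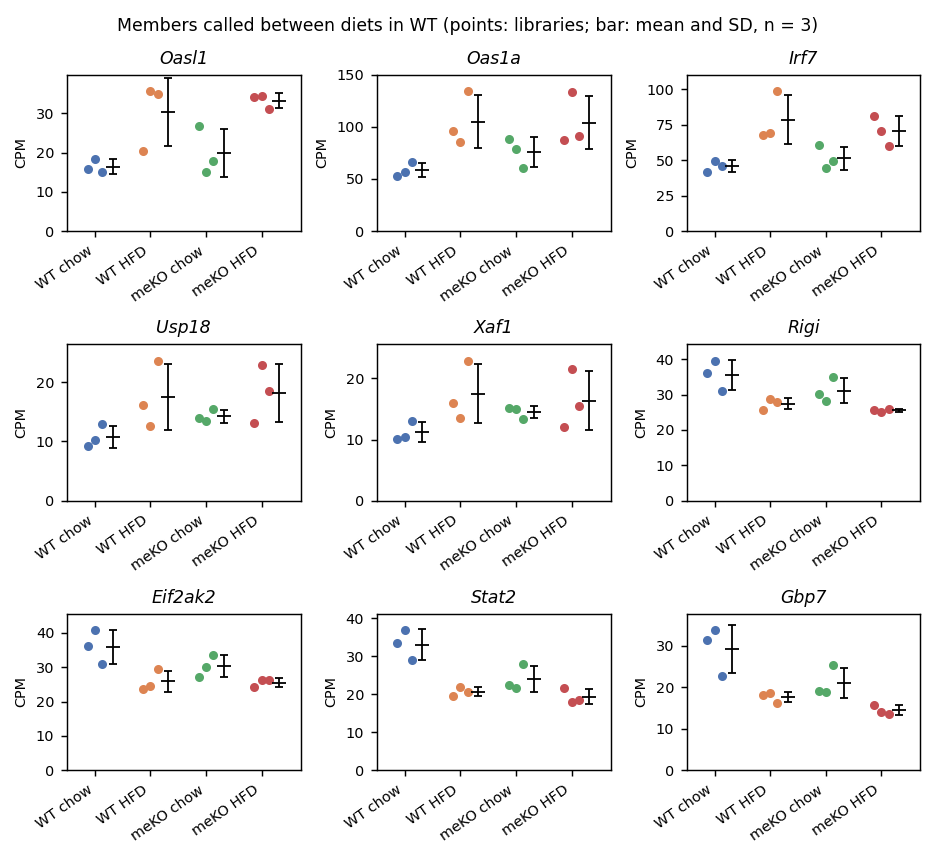
CPM of the 9 members called between diets in WT, by group; points are libraries and the bars beside them the mean and SD (n = 3). Oasl1, Oas1a, Irf7, Usp18 and Xaf1 have higher means in WT HFD than in WT chow, while Rigi, Eif2ak2, Stat2 and Gbp7 are lower in every WT HFD library.

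The diet effects of the members were compared between the genotypes, whose diet contrasts have no library in common. In 29 of 38 members (76.3%) the log2 fold changes had the same sign, beside 76.4% of all 12339 genes. Over the 38 members the 2 sets of values correlated at Pearson's r 0.85 and Spearman's rho 0.82, against 0.59 and 0.66 over all genes. Both sets also followed transcript length. Spearman's rho with length was -0.80 in WT and -0.61 in meKO over 37 members, and -0.54 and -0.31 over 11532 genes. The part of length in the correlation between genotypes was not tested. The effect was larger in WT for 27 members (71.1%), close to the 70.4% of all genes. The test of the difference itself, the interaction of genotype and diet, called 0 members with edgeR, limma-voom, limma-voom with quality weights and DESeq2, where 0.0162%, 0.0162%, 2.39% and 0.122% of all genes were called. Gbp2 was the only member with an unadjusted p under 0.05 there, beside 6.13% of all genes (interaction -0.42 ± 0.16, adjusted p = 0.773).

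**Figure D3:**
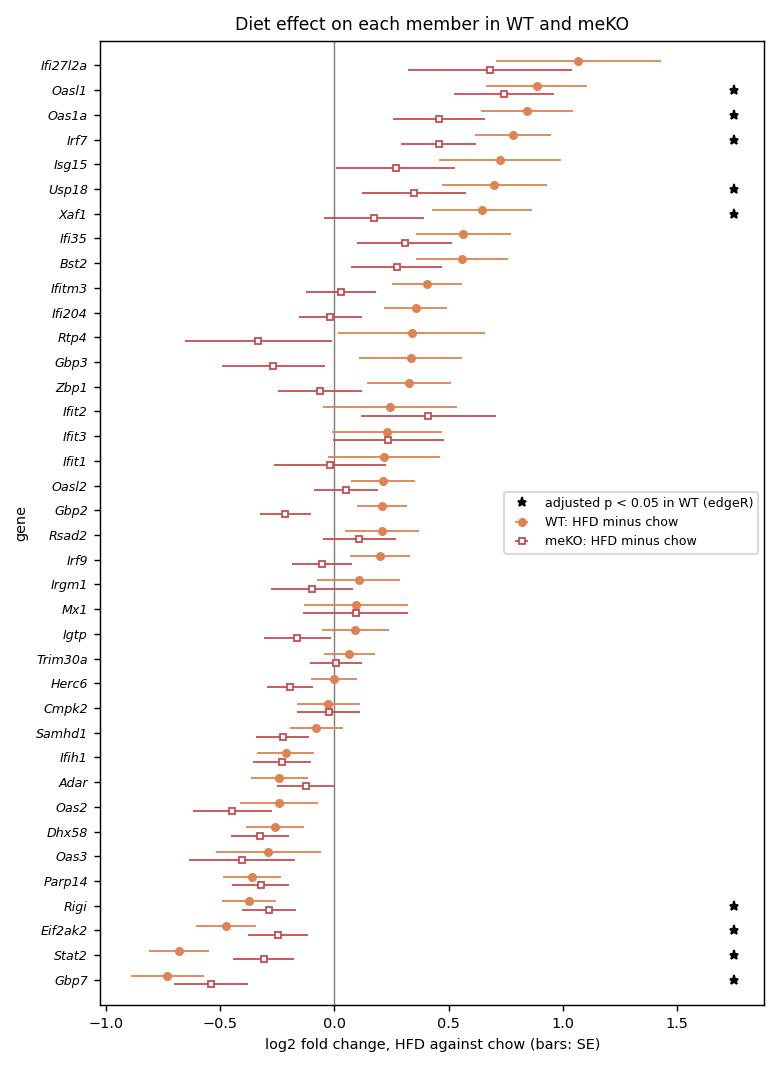
Log2 fold change of HFD against chow for each member in WT (filled circles) and meKO (open squares), with the standard error; stars mark an adjusted p under 0.05 in WT. Members run from Ifi27l2a, 1.07 in WT, down to Gbp7, -0.73, and 29 of 38 have the same sign in both genotypes.

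The direction of the diet effect followed transcript length. Members whose longest annotated transcript was under the members' median of 3240 bases had a positive log2 fold change in WT in 17 of 18 cases, with a median of 0.38. Members of that length or longer had one in 7 of 19 cases, with a median of -0.08. Over all genes split at the same length, 3722 of 5475 shorter genes were positive, with a median of 0.16. Of the longer genes 1575 of 6057 were, with a median of -0.24, so that both member medians lay above those of all genes. Ifi27l2a (463 bases), Isg15 (756) and Bst2 (792) lie at the short end and pointed up, while Stat2 (4397), Gbp7 (5614) and Parp14 (7417) lie at the long end and pointed down. Spearman's rho between log2 fold change and length in WT was -0.80 over 37 members and -0.54 over 11532 genes.

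After each library's counts were corrected for a smooth trend over transcript length and GC content, the medians in WT were 0.20 for the shorter and 0.06 for the longer members, and rho over the members was -0.35. Under that correction 6 members were called in WT, beside 13.5% of all genes: Irf7, Oasl1 and Oas1a higher and Gbp7, Stat2 and Eif2ak2 lower. In the averaged contrast it left 8 called, 3 higher and 5 lower, beside 24.0% of all genes. Irf7 was then higher by 0.95 in WT (adjusted p = 0.00832) and Gbp7 lower by -0.55 (adjusted p = 0.0158). Bst2 moved from 0.42 to 0.09 (adjusted p = 0.399) and Parp14 from -0.34 to -0.12 (adjusted p = 0.194) in the averaged contrast. What gave rise to the trend with length was not tested.

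**Figure D4:**
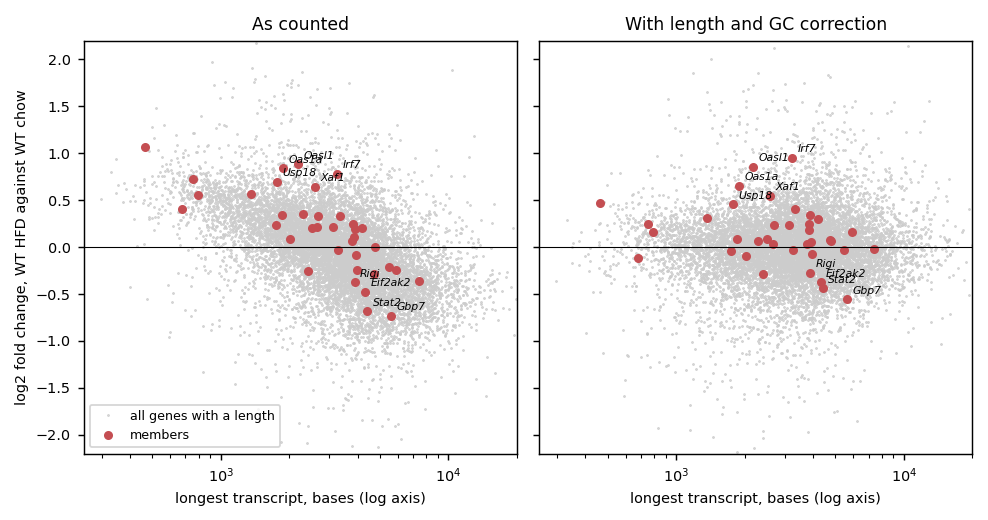
Log2 fold change of WT HFD against WT chow (vertical axis; a few genes lie beyond its limits) against the length of the longest transcript in bases (log axis), before and after the length and GC correction, with members in red and all genes with a length in grey. Short members lie high and long members low in the first panel (rho -0.80), and the slope is smaller in the second (rho -0.35).

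**Figure D5:**
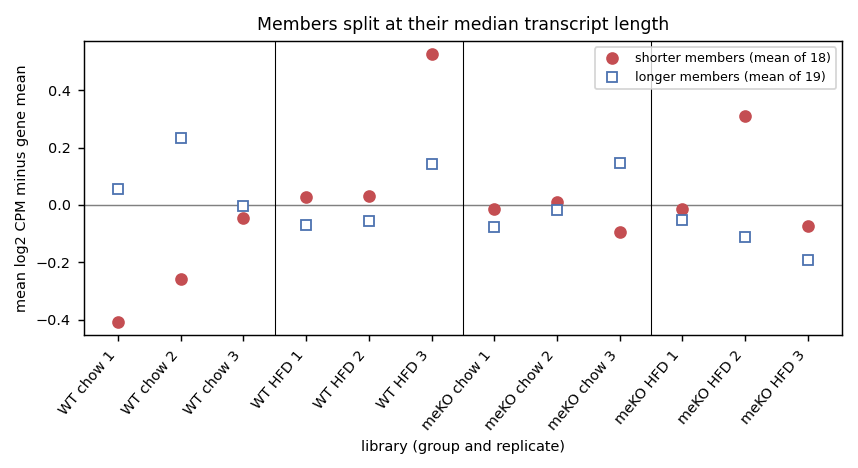
Mean over the 18 shorter (filled) and 19 longer (open) members of log2(CPM + 0.1) minus the gene's mean, in each library. The shorter members stand lowest in WT chow replicates 1 and 2, at -0.41 and -0.26, and highest in WT HFD replicate 3, at 0.53, and the longer members stand highest in WT chow replicate 2, at 0.23.

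Between genotypes on chow, 0 of 38 members were called with edgeR (0.081% of all genes were), 3 had an unadjusted p under 0.05 (19.8% of all genes), limma-voom called 0 (0.0162% of all genes), DESeq2 called 1, lower (4.56%), and limma-voom with quality weights 8, 3 higher and 5 lower (32.8%). The 3 with a low p also fell with HFD averaged over genotypes, a contrast that shares the chow libraries. Stat2 stood lower in meKO by -0.46 ± 0.13 (adjusted p = 0.115), Gbp7 by -0.48 ± 0.16 (adjusted p = 0.147) and Parp14 by -0.28 ± 0.12 (adjusted p = 0.232). These 3 are among the longer members. In this contrast Spearman's rho between log2 fold change and length was -0.75 over 37 members and -0.60 over 11532 genes. Every meKO chow library lay above every WT chow library for 3 members (8.87% of all genes) and below for 1, Stat2 (8.28% of all genes). The median log2 difference over the members was 0.06. Without WT chow replicate 3, 5 members were called, 1 higher and 4 lower, and 20.6% of all genes.

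On HFD, 33 of 38 members were lower in meKO than in WT by sign, with a median of -0.12 against 0.02 over all genes, but edgeR called none (0.081% of all genes), 2 had an unadjusted p under 0.05 (4.56%), limma-voom called 0 (0.0405%), DESeq2 called 0 (0.430%) and limma-voom with quality weights called 1, which was lower (1.04%). Every meKO HFD library lay below every WT HFD library for 6 members (4.85% of all genes) and above for 0 (5.45% of all genes). The 2 with a low p were Gbp3 (-0.60 ± 0.23, adjusted p = 0.957) and Oas2 (-0.44 ± 0.17, adjusted p = 0.989). Without WT HFD replicate 3, the library that held the most member maxima, 17 of 38 were lower and the median was 0.03. Averaged over both diets, edgeR called 0 members (0.17% of all genes), 4 had an unadjusted p under 0.05 (17.7%), limma-voom called 0 (0.162%), DESeq2 called 0 (2.97%) and limma-voom with quality weights called 6 (31.1%). The 4 were Gbp7 (-0.38 ± 0.11), Parp14 (-0.27 ± 0.09), Stat2 (-0.28 ± 0.09) and Oas2 (-0.34 ± 0.12), with adjusted p from 0.160 to 0.199. Averaged over diets, too, log2 fold change followed length, at Spearman's rho -0.63 over 37 members and -0.56 over 11532 genes.

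No interferon gene was among those listed: of 13 ligand genes looked up, from Ifnb1 to Ifng, the table held 0. The receptor and JAK-STAT list had 9 genes, of which 2 (22.2%, against 21.3% of all genes) fell with HFD in WT, Stat3 (-0.63 ± 0.18, adjusted p = 0.0284) and Tyk2 (-0.62 ± 0.18, adjusted p = 0.0316). The receptor chains Ifnar1 and Ifnar2 were not called: their log2 differences in WT were -0.12 ± 0.11 (adjusted p = 0.465) and 0.24 ± 0.10 (adjusted p = 0.0919).

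Of 14 sensors and adaptors of the induction pathway 2 fell in WT (14.3%, against 21.3% of all genes called) and 3 in the averaged contrast (21.4%, against 30.2%), and none rose in either. Tlr9, the endosomal receptor for CpG DNA, was at 9.48, 5.72 and 5.22 CPM in WT chow and at 1.26, 1.55 and 0.782 CPM in WT HFD. It was 5.71-fold lower in WT (-2.51 ± 0.38, adjusted p = 0.00489), with -0.71 ± 0.35 in meKO (adjusted p = 0.339). B cells and dendritic cells also express Tlr9, and these marker sums given above were lower in WT HFD than in WT chow; their part was not tested. Ticam2, the TRAM adaptor of Tlr4, and Tlr7, the receptor for single-stranded RNA, fell in the averaged contrast (-0.43 ± 0.09, adjusted p = 0.00912, and -0.30 ± 0.11, adjusted p = 0.0443).

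A list of 8 other genes held interferon regulatory factors and the Irf2-binding proteins Irf2bp1 and Irf2bp2. Of these 8 genes, 1 rose and 3 fell averaged over genotypes, where 30.2% of all genes were called. Irf3, the factor that starts interferon transcription, rose with HFD in the averaged contrast (0.35 ± 0.08, adjusted p = 0.00990). Irf8, a lineage factor of macrophages and dendritic cells (-0.53 ± 0.11, adjusted p = 0.00740), and the repressor Irf2 (-0.51 ± 0.13, adjusted p = 0.0132) fell. Among 8 negative regulators, Otulin, a deubiquitinase that limits inflammatory signalling, rose in that contrast (0.29 ± 0.09, adjusted p = 0.0269), and Socs3, an inhibitor of JAK kinases, was not called.

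A wider list of 74 other type I induced genes gave 9 higher and 7 lower in WT (21.6%) and 9 higher and 12 lower averaged (28.4%), each near the share of all genes. Slfn4 (0.88 ± 0.16, adjusted p = 0.00461) and Oas1g (0.95 ± 0.18, adjusted p = 0.00585) rose averaged over genotypes, and Znfx1, a helicase that binds viral RNA, fell in WT (-0.82 ± 0.17, adjusted p = 0.0134). Of 16 further genes that interferon gamma is known to induce, 3 rose and 6 fell averaged over genotypes (56.2%, against 30.2% of all genes). In WT 2 rose and 4 fell (37.5%, against 21.3%). Named here are the 3 with the smallest p, all of them lower in the averaged contrast. Ciita, the master regulator of MHC class II genes, fell by 1.40 on the log2 scale (adjusted p = 0.00134), beside the B cell sums above. Irgm2 (-0.47 ± 0.09, adjusted p = 0.00512) and Gbp5 (-0.88 ± 0.19, adjusted p = 0.00886) fell with it.

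The members did not vary as a single block over the 12 libraries. Correlated with the mean of the other members, Zbp1 and Oasl2 were highest, each at r 0.93, followed by Ifit1 at 0.85 and Rtp4 at 0.82. At the other end stood Gbp7 at -0.35, Stat2 at -0.33, Adar at -0.30 and Oas3 at -0.24. The 5 listed genes outside the members that most resembled their mean were Gm12250 (r 0.91), Ifi47 (0.89), Tgtp2 (0.86), Parp9 (0.82) and Tgtp1 (0.81). Of these Ifi47, an immunity-related GTPase, was at 17.2, 21.5 and 27.6 CPM in WT chow and at 26.9, 23.7 and 39.2 CPM in WT HFD, highest in WT HFD replicate 3. These correlations describe 12 libraries that share depth scaling and the length trend given above.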

How the data were processed

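The values deposited by the authors are raw read counts per gene, not normalized, with Entrez identifiers and symbols. RNA was extracted with Trizol for TruSeq libraries, per the labels' protocols. The submitters' processing notes name DESeq2 and the build mm10; the aligner, counter and strand setting are not given in the sources used here. Counts were fitted with edgeR 4.0.16 (R 4.3.3; quasi-likelihood test, TMM factors, filterByExpr, which kept all 12339 genes, robust dispersions) over 12 libraries and 4 group means. Contrasts were tested two-sided, with Benjamini-Hochberg adjustment over all genes, and a gene was called at an adjusted p under 0.05. CPM used the TMM-scaled library sizes. Alternatives were other scalings and filters, limma 3.58.1 (voom), DESeq2 1.42.0, only the groups compared, each library left out, and a length and GC correction (splines with 5 degrees of freedom; GENCODE M21 lengths for 93.5% of genes and 37 of 38 members). The fit was tested on simulated data.

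The members and lists were chosen with earlier results of these data known. Values in every library are given for at most 12 called members with the smallest p, and for the leading member of each role; of each other list up to 3 genes are named, and the receptor chains were added after their values were seen. Some items are not reported here. Gene coordinates are from RefSeq (GRCm38.p6).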

Additional observations from a re-analysis of the deposited data

How the results depend on the processing

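Of 23 tested changes of single members, 0 changed direction and 16 lost their call under at least 1 of 21 or 22 alternatives; with HFD averaged over genotypes Gbp7, Irf7, Stat2, Oasl1, Oas1a, Rigi and Eif2ak2 kept it under all 21, and in WT alone 0 of 9 kept it under all 22. Members called in WT numbered 21 with quality weights (13 higher; 52.0% of all genes were called) and 16 with DESeq2 (11 higher; 27.9%), and 0 to 16 with a library left out (0.778% to 39.9%). Averaged over genotypes they numbered 8 with the length and GC correction (24.0%) and 8 to 20 with a library left out (15.9% to 43.2%). Between genotypes on chow they numbered 8 with quality weights (32.8%), 1 with DESeq2 (4.56%) and 0 to 5 with a library left out (20.6% at 5); on HFD 1 with quality weights (1.04%); averaged over diets 6 with quality weights (31.1%) and 0 to 4 with a library left out (11.3% at 4). For HFD in meKO there was 1 with quality weights (3.23%). Leaving out WT chow replicate 3 gave the 16, 20, 5 and 4, and leaving out WT chow replicate 1 or WT HFD replicate 3 gave the 0 in WT; the cause was not tested. No paired analysis was possible because replicate numbers here only follow accession order and the labels pair no libraries across groups. With 3 libraries a group, a p above the threshold does not show that a member stayed level.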
